A study of Mus musculus with 6 samples.

Results

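The mouse Cyp3a genes encode the cytochrome P450 enzymes of subfamily 3A. They were taken by symbol from the deposited gene table, and 9 of its 55401 genes made up the set: Cyp3a11, Cyp3a13, Cyp3a16, Cyp3a25, Cyp3a41a, Cyp3a41b, Cyp3a44, Cyp3a57 and Cyp3a59. The set was chosen because Cyp3a41a went from no counts to a measurable level in the comparison described here. The differences of the members between the groups are therefore given as a description. Where a member is said to pass the threshold or not, this is its row in the model fitted over all genes, and nothing rests on it. All 9 members passed the filter on low counts, Cyp3a41a and Cyp3a41b only through their counts in the knockouts.

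Whole liver RNA was sequenced from 3 control mice, genotype Prdx1(lox/lox), and 3 knockout mice, genotype Prdx1(lox/lox);Alb-cre. All 6 were males, 8 weeks old at the start, and all were kept for 5 weeks on MCD, which usually abbreviates a diet deficient in methionine and choline. Both groups carry floxed alleles of Prdx1, the gene of peroxiredoxin 1, which reduces peroxides, and Alb-cre drives Cre recombinase from the albumin promoter, which is active in hepatocytes. Cre was present in the knockouts alone, so the transgene and the loss of Prdx1 cannot be told apart, and no mouse was kept on another diet.

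CYP3A enzymes sit in the membrane of the endoplasmic reticulum, mainly in hepatocytes and in the epithelium of the small intestine, and oxidise steroids, bile acids and a large part of all drugs. They take electrons from P450 reductase and cytochrome b5 and carry a haem group. Their transcription is raised by the xenobiotic receptors PXR (Nr1i2) and CAR (Nr1i3), which bind DNA with RXR, and rests on hepatocyte factors such as HNF4A. In the mouse several members differ between the sexes through the pattern of growth hormone: Cyp3a41a, Cyp3a41b, Cyp3a44 and, in young animals, Cyp3a16 are known as forms of the female or immature liver, and Cyp3a11 is the main form of the adult liver.

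Prdx1, measured first as a check of the labels, was at 626 ± 49.5 CPM (counts per 1000000 counts of the library, scaled by TMM factors) in the controls against 88.3 ± 19.6 CPM in the knockouts (mean ± SD, n = 3 each), 14.1% of the control level (Benjamini-Hochberg adjusted p = 4.4e-05, quasi-likelihood test of edgeR). Libraries held 58790874 to 78291273 deposited counts, with 20903 to 21073 genes counted in the controls and 22499 to 23189 in the knockouts. Of 18931 genes tested, 3767 were higher and 3415 lower in the knockouts at an adjusted p under 0.05. With library sizes in place of TMM factors the split was 6459 higher and 1249 lower, and the median over all tested genes moved from a log2 fold change of 0.05 to 0.41. Summed hepatocyte markers ranged from 129000 to 152000 CPM in the controls and from 75600 to 96800 in the knockouts, with 0 of 19 markers higher and 14 lower, and cholangiocyte markers from 88.9 to 101 and from 1190 to 1380 CPM, with 12 of 12 higher. The study used 3 mice of each genotype, and its labels give no litter, batch or date.

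All 9 members lie on chromosome 5 (positions in GRCm38). From Cyp3a57 (145345279 to 145390926, plus strand) to Cyp3a59 (146079257 to 146113287, plus strand), 8 of them lie within 768 kb, with Cyp3a16 (145436309 to 145469723), Cyp3a41b (145558664 to 145584730), Cyp3a41a (145694049 to 145720136), Cyp3a44 (145773983 to 145805874), Cyp3a11 (145854426 to 145879964) and Cyp3a25 (145977194 to 146009618) on the minus strand between them. Cyp3a13 (137892932 to 137921619, minus strand) lies apart. The longest protein-coding transcript of each member in GENCODE M21 has 13 exons, and the coding sequences of these transcripts are 1512 or 1515 bases long. In coding sequence Cyp3a41a and Cyp3a41b differed at 2 of 1515 bases (99.9% identity), Cyp3a41a and Cyp3a44 at 64 (95.8%), and Cyp3a25 and Cyp3a59 were 97.5% identical. Cyp3a13 had no close relative in the set, at 74.7% to 76.5% identity with the others. Some pairs among the others were as distant, such as Cyp3a16 and Cyp3a57 (74.2%) and Cyp3a11 and Cyp3a25 (76.0%).

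The sequences just before the transcription start are shown for the pair that was near 0 in the controls, Cyp3a41a and Cyp3a41b, and for their closest relatives over this stretch, Cyp3a44 and Cyp3a16, which were counted in the controls as well. Each is the 250 bases before the RefSeq start (GRCm38.p6, minus strand, 5′ to 3′) at chr5:145720137-145720386, chr5:145584731-145584980, chr5:145805875-145806124 and chr5:145469724-145469973. Capitals mark CAAAGTCCA, a sequence of the kind bound by HNF4A, and AGGTCA, the core half-site of nuclear receptors.
Cyp3a41a: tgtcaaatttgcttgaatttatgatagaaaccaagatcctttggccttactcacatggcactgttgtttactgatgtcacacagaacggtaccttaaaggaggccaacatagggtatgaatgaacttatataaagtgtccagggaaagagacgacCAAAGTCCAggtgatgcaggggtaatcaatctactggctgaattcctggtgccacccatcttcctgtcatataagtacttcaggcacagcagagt
Cyp3a41b: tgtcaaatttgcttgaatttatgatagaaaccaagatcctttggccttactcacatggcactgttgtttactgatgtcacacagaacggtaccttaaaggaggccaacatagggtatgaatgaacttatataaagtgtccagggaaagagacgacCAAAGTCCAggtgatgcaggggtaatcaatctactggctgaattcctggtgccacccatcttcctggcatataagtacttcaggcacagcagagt
Cyp3a44: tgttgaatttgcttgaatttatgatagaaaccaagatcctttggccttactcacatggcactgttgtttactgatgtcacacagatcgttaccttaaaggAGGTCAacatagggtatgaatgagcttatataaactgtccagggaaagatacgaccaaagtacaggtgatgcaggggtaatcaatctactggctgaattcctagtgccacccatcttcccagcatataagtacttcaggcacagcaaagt
Cyp3a16: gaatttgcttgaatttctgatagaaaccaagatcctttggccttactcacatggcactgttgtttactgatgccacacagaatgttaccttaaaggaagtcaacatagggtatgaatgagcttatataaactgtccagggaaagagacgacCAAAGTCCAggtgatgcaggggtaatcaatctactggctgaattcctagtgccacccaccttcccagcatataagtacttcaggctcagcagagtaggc
Cyp3a41a and Cyp3a41b differ at 1 of these 250 bases, T222G, counted from the first base printed, with the base of Cyp3a41a given first. Over windows of 300 bases, 250 before the start and 50 after it, Cyp3a41a was 93.7% identical to Cyp3a44, 94.6% to Cyp3a16 and 73.7% to Cyp3a11.

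All 9 members were found in the RefSeq promoter table, 1 of them with more than 1 entry, of which the first listed was used. On either strand, CAAAGTCCA occurred in the windows of 4 members, Cyp3a11, Cyp3a16, Cyp3a41a and Cyp3a41b, against 0.475% of all 32851 windows. AGGTCA occurred in 5, Cyp3a11, Cyp3a25, Cyp3a44, Cyp3a57 and Cyp3a59 (16.3% of all windows), and TGAACT, a variant of the same half-site, in 3, Cyp3a11, Cyp3a41a and Cyp3a41b (14.0%). TTCNNNGAA, the motif of STAT5, occurred in 0 of 9 (8.3%). TATAAA, also searched, occurred in 5, Cyp3a11, Cyp3a16, Cyp3a41a, Cyp3a41b and Cyp3a44 (13.6%). The windows of related members are near copies, so these matches are not independent of each other, and they describe letters in the window only.

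In level per transcript length (deposited FPKM), Cyp3a11 stood first in both groups, with 489 ± 63.5 FPKM in the controls and 404 ± 32.9 in the knockouts. In the controls it was followed by Cyp3a25 (122 FPKM), Cyp3a13 (21.1), Cyp3a59 (16.9), Cyp3a44 (9.81), Cyp3a57 (0.241), Cyp3a16 (0.191), Cyp3a41b (0.0182) and Cyp3a41a, listed at no count. The ranges of Cyp3a13 and Cyp3a59, of Cyp3a57 and Cyp3a16, and of Cyp3a41b and Cyp3a41a overlapped between the 3 controls. In the knockouts the first 5 places were the same, and Cyp3a41a (3.15 FPKM) and Cyp3a41b (2.41), whose ranges overlapped, stood above Cyp3a57 (1.07) and Cyp3a16 (0.165). The ranges of Cyp3a59 and Cyp3a44 overlapped in the knockouts.

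**Figure D1:**
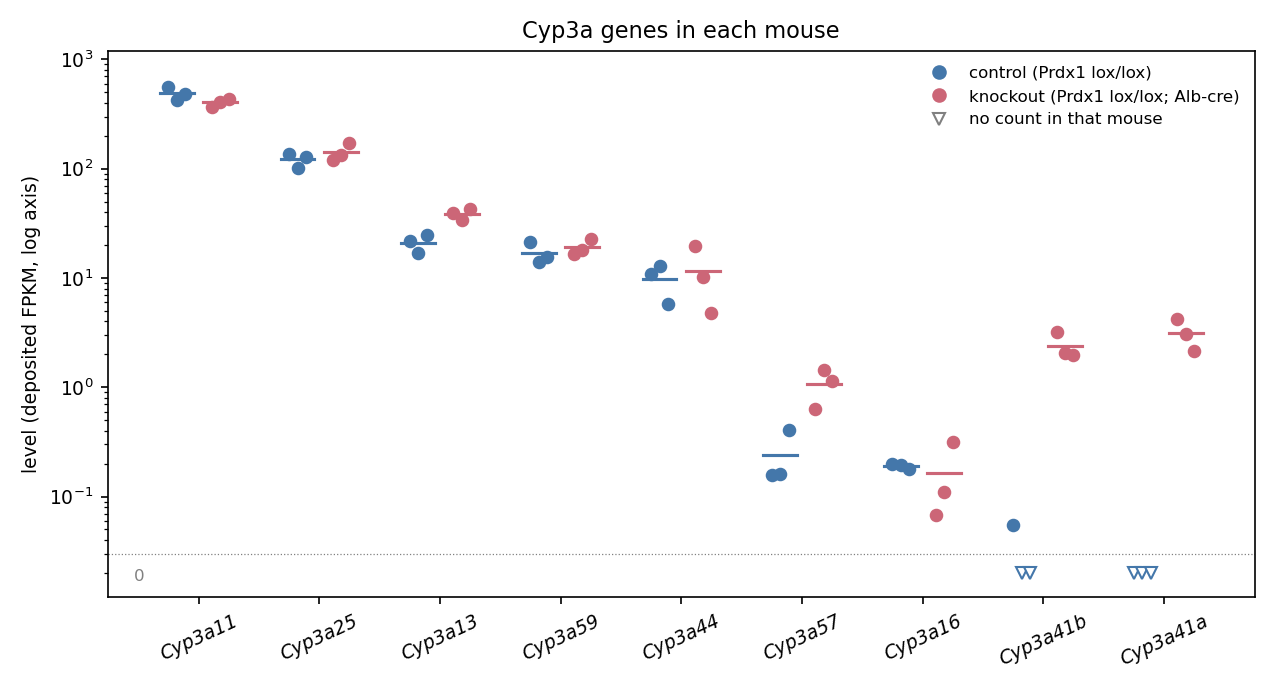
Level of each Cyp3a gene in each mouse as deposited FPKM on a log axis, with points for mice and a bar for the mean of 3 mice. Open triangles below the dotted line mark mice with no count, and no bar is drawn for a mean below that line. Cyp3a41a and Cyp3a41b lie between 1.97 and 4.22 FPKM in the knockouts, and in the controls only 1 mouse had any count for either.

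Cyp3a41a (ENSMUSG00000075551) had counts of 0, 0 and 0 in the controls, against 567, 551 and 378 in the knockouts, or 8.36, 6.08 and 4.47 CPM. Every knockout mouse was above every control mouse. The knockout mean of 6.30 ± 1.95 CPM was at least 90.8-fold higher than the controls, taking for the controls a floor of 3 read pairs over the group (12 deposited counts, since a read pair was worth about 4). The bound covers counting error only and takes the deposited split of reads between Cyp3a41a and Cyp3a41b as given. Leaving out 1 library at a time, this bound ran from 60.1 without control 2 to 104 without knockout 3.

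Cyp3a41b (ENSMUSG00000075552) had counts of 8, 0 and 0 in the controls, against 428, 371 and 349 in the knockouts. In CPM the controls were at 0.143, 0 and 0 and the knockouts at 6.31, 4.09 and 4.12, so the groups did not overlap. The ratio of the means was 102, with a 95% interval of 28.0 to 847 (exact Clopper-Pearson interval on about 2 against 287 read pairs, which covers counting error only). The control counts came from control 1 alone. Without that library the controls were at 0 and the difference was at least 47.2-fold.

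The pair is close enough in sequence that reads cannot be divided between its members with certainty. Of all stretches of 150 bases, the read length, 82.9% of those of Cyp3a41a and 82.7% of those of Cyp3a41b occur in the other gene without a change, so the 2 values are best read as 1 joint level. No such stretch of either transcript occurs without a change in that of another member, Cyp3a44 included. Stretches with mismatches and the pseudogenes were not compared. Cyp3a41a was at 0 in controls that held 817 to 1849 counts of Cyp3a44. Whether reads of other Cyp3a genes were counted for the pair was not tested.

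Cyp3a44 (ENSMUSG00000054417), the nearest relative of the pair in coding sequence, was present in both groups at 26.3, 31.6 and 14.0 CPM in the controls, against 36.8, 19.1 and 9.48 CPM in the knockouts. The groups overlapped widely, and the coefficient of variation was 37.7% in the controls and 63.7% in the knockouts. Its log2 fold change was −0.14 ± 0.48 (SE), and turned to 0.23 without knockout 3 and to 0.11 without control 2. It went to −0.74 without knockout 1 and to −0.41 without control 3.

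Cyp3a16 (ENSMUSG00000038656), a form best known from the immature liver, was barely counted. It had counts of 24, 25 and 23 in the controls, against 8, 17 and 47 in the knockouts, and the knockouts lay on both sides of the controls. The log2 fold change was −0.53 ± 0.73, and −1.42 without knockout 3.

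Cyp3a57 (ENSMUSG00000070419) had counts of 22, 24 and 60 in the controls, against 83, 252 and 194 in the knockouts. The corresponding levels were 0.392, 0.410 and 1.03 CPM and 1.22, 2.78 and 2.29 CPM, and every knockout was above every control. The mean went from 0.610 ± 0.361 to 2.10 ± 0.796 CPM, a log2 fold change of 1.78 ± 0.52. The lowest knockout and the highest control lay close together, and the difference no longer passed the threshold without control 1, control 2, knockout 2 or knockout 3.

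Cyp3a11 (ENSMUSG00000056035), the main hepatic form, was at 3469, 2739 and 3069 CPM in the controls, against 1806, 1989 and 2238 CPM in the knockouts. All 3 knockouts were below all 3 controls, and the mean went from 3092 ± 366 to 2011 ± 217 CPM, a log2 fold change of −0.62 ± 0.12. In FPKM the groups overlapped, at 554, 427 and 486 in the controls, against 369, 407 and 435 in the knockouts. In bulk liver, fewer cells of a type and less RNA per cell cannot be told apart. Per 100 counts of the 19 hepatocyte markers, Cyp3a11 was at 2.69, 1.80 and 2.27 counts in the controls, against 2.39, 2.56 and 2.31 in the knockouts, and the groups overlapped.

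Cyp3a25 (ENSMUSG00000029630), the next most abundant form of the adult liver, was at 352, 266 and 330 CPM in the controls, against 240, 268 and 361 CPM in the knockouts. The groups overlapped, with a log2 fold change of −0.12 ± 0.17, which became 0.24 with library sizes alone. Per 100 counts of hepatocyte markers it was higher in every knockout, at 0.273, 0.174 and 0.243 in the controls, against 0.318, 0.344 and 0.373 in the knockouts. The groups did not overlap with albumin left out of the markers either. Of the 19 markers 14 were lower and 5 did not pass, with log2 fold changes such as −2.97 for Glul and −0.008 for Cps1. The ratio thus depends on the markers chosen, and a change per hepatocyte was not tested.

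Cyp3a59 (ENSMUSG00000061292), its closest relative, was at 52.3, 35.2 and 38.8 CPM in the controls, against 32.0, 34.8 and 45.7 CPM in the knockouts, also with overlap (log2 fold change −0.17 ± 0.19, or 0.19 with library sizes alone). Per 100 counts of hepatocyte markers it was higher in every knockout, at 0.0405, 0.0231 and 0.0287 in the controls, against 0.0423, 0.0447 and 0.0472 in the knockouts. The limit given for Cyp3a25 holds here too. The transcripts of Cyp3a25 and Cyp3a59 share 0.702% and 0.706% of their stretches of 150 bases without a change. Exchange of reads between them was not tested.

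Cyp3a13 (ENSMUSG00000029727), known from both liver and small intestine, was at 79.1, 63.0 and 89.7 CPM in the controls, against 112, 96.4 and 128 CPM in the knockouts. All 3 knockouts were above all 3 controls, with means of 77.3 ± 13.5 and 112 ± 15.6 CPM and a log2 fold change of 0.53 ± 0.15. Per 100 counts of hepatocyte markers the groups did not overlap either, at 0.0613, 0.0413 and 0.0663 in the controls, against 0.148, 0.124 and 0.132 in the knockouts. The difference in CPM did not pass the threshold without control 1, control 2, knockout 1 or knockout 3. Of 11 markers of the intestinal epithelium, Sis, Alpi, Fabp6, Cdx1 and Cdx2 had no count in any of the 6 libraries, and 3 could be tested. Vil1, the actin-bundling protein villin, rose from 1.03 ± 0.801 to 6.95 ± 0.707 CPM (adjusted p = 0.00587, edgeR's quasi-likelihood test). Fabp2 and Apoa4, which bind lipid, fell from 95.0 ± 6.44 to 33.5 ± 2.82 CPM and from 3688 ± 945 to 1091 ± 175 CPM (adjusted p = 6.53e-05 and 0.000579, same test). Too low to be tested, Cdh17 was at 0 in the controls and had a knockout mean of 0.306 ± 0.202 CPM, with every knockout above 0, and Lct and Muc2 overlapped between the groups. Whether cells with these markers take part in the level of Cyp3a13 was not tested. Cyp3a13 overlaps the gene model Gm15502 on the same strand, which had few counts.

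In the model over all genes, 4 of the 9 members passed the threshold as higher (Cyp3a41a, Cyp3a41b, Cyp3a57 and Cyp3a13), against 19.9% of all tested genes, and 1 as lower (Cyp3a11), against 18.0% (37.9% in either direction). These are also the members whose groups did not overlap in CPM, which held for 28.8% of all tested genes with the knockouts higher and 24.2% with the knockouts lower (53.0% in all). Since the set was picked from this comparison, nothing is read from these counts. Without control 1, control 2 or knockout 3, 2 members passed as higher.

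The size and sign of several differences followed the scaling of the libraries. Relative to the median of all tested genes, the log2 fold change of Cyp3a11 was −0.67 under TMM factors, −0.67 under unscaled library sizes and −0.58 in FPKM + 0.1. For Cyp3a25 the same 3 values were −0.17, −0.18 and −0.10, for Cyp3a59 −0.21, −0.22 and −0.13, and for Cyp3a13 0.49, 0.48 and 0.57. Measured against 0 instead, Cyp3a25, Cyp3a59 and Cyp3a44 were below it with TMM factors and above it with library sizes or FPKM, and Cyp3a11 did not pass the threshold with library sizes or FPKM. Cyp3a41a, Cyp3a41b, Cyp3a57 and Cyp3a13 were above 0 under each of these scalings.

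**Figure D2:**
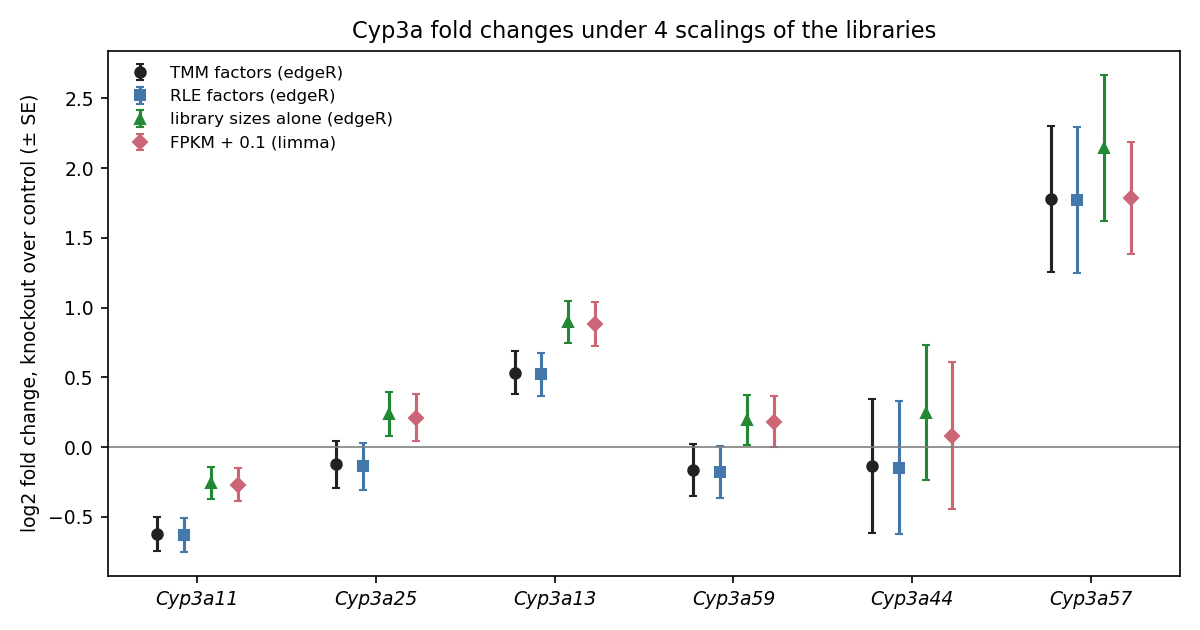
Log2 fold changes (knockout over control, ± SE) of the 6 Cyp3a genes that had at least 22 counts in every mouse, under 4 scalings of the libraries. The values for library sizes and FPKM lie above those for TMM and RLE factors, and Cyp3a25, Cyp3a59 and Cyp3a44 cross the line at 0.

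The members differed from each other in ways that do not depend on the scaling, since shares within a library cancel it. Cyp3a11 made up 87.2%, 87.4% and 86.6% of the summed CPM of the 9 members in the controls, against 80.5%, 82.2% and 80.1% in the knockouts, or 87.1 ± 0.375% and 81.0 ± 1.09% on average. In deposited FPKM its share was 74.2 ± 0.497% and 65.0 ± 1.54%. All 3 knockouts lay below all 3 controls on both scales.

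The part of Cyp3a11 was taken up mainly by Cyp3a25, whose share of the summed FPKM was 18.5 ± 0.812% in the controls against 22.7 ± 2.17% in the knockouts, and by Cyp3a13, at 3.20 ± 0.446% and 6.23 ± 0.642%. Cyp3a41a and Cyp3a41b, which had the largest ratios, came to 0.518% and 0.394% of the summed FPKM in the knockouts. Their joint share of the summed CPM was 0.461% in the knockouts and 0.00120% in the controls.

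The summed level of the 9 members was 3980, 3135 and 3542 CPM in the controls, against 2242, 2420 and 2793 CPM in the knockouts, a ratio of 0.70. With TMM factors this difference lay in Cyp3a11, since the other 8 members summed to 460 ± 58.1 and 474 ± 69.9 CPM. In FPKM the sums overlapped, at 745, 572 and 661 against 573, 610 and 682, a ratio of 0.943. On that scale the other 8 members were higher in every knockout, at 192, 145 and 174 against 204, 203 and 247. Per 100 counts of hepatocyte markers the sums were 3.08, 2.06 and 2.62 in the controls, against 2.97, 3.11 and 2.89 in the knockouts, again with overlap.

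**Figure D3:**
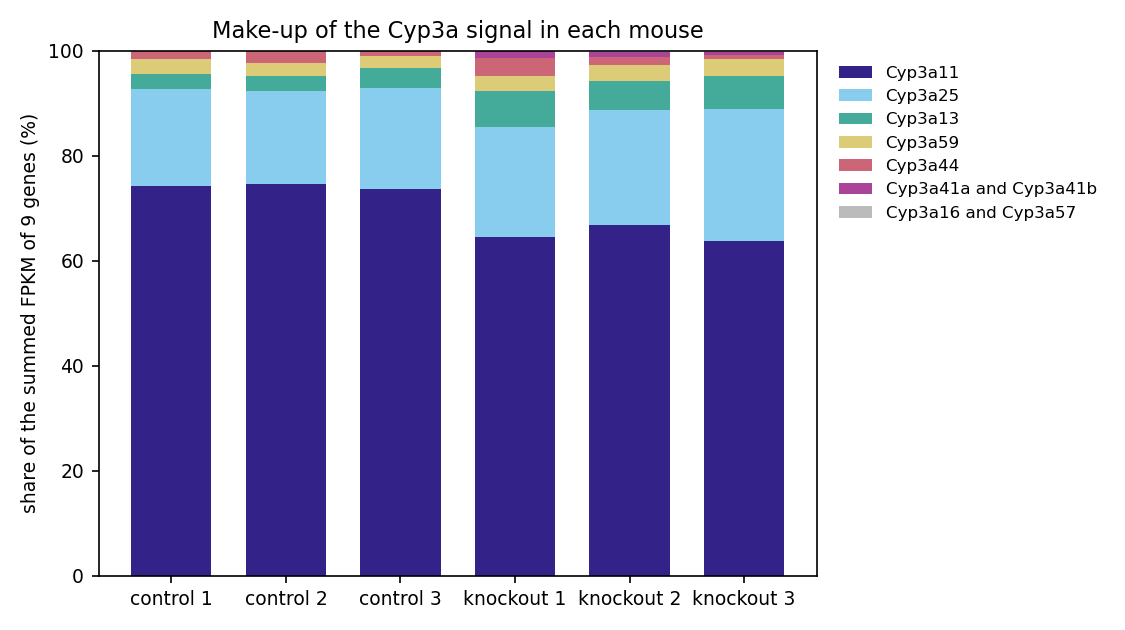
Share of each gene in the summed FPKM of the 9 Cyp3a genes in each mouse, in percent. The share of Cyp3a11 lies between 73.6% and 74.6% in the controls and between 63.8% and 66.7% in the knockouts, and the shares of Cyp3a25 and Cyp3a13 are larger in the knockouts.

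Among the 3 knockouts the members did not move as one. Knockout 1 had the highest Cyp3a41a, Cyp3a41b and Cyp3a44, and the lowest Cyp3a11, Cyp3a25, Cyp3a59, Cyp3a57 and Cyp3a16 of the 3. Knockout 3 had the lowest Cyp3a41a and Cyp3a44, and the highest Cyp3a11, Cyp3a25, Cyp3a59, Cyp3a13 and Cyp3a16. With 3 mice this is a description of these libraries.

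Between Cyp3a41b and Cyp3a41a lies the pseudogene Cyp3a63-ps, named after its values were seen. It had counts of 0, 15 and 4 in the controls, against 191, 109 and 36 in the knockouts, and its order over the knockouts was that of Cyp3a41a. Its log2 fold change was 3.74 ± 1.16 (adjusted p = 0.0373, edgeR's quasi-likelihood test), and the call was lost without control 1, control 3, knockout 1 or knockout 2 (adjusted p = 0.0595 to 0.156). Whether its counts are reads of other Cyp3a genes was not tested. Inside the 768 kb cluster there are 14 genes that are not members, and 11 of them had no count in any library. Within 200 kb of the cluster 13 such genes were tested, of which 1, the pseudogene, passed the threshold as higher, and 2, Atp5j2 and Bud31, as lower, with a median log2 fold change of 0.07 against 0.05 over all genes. Over the whole stretch from Cyp3a13 to Cyp3a59 with the same flanks, 33 of 138 tested genes were higher and 21 lower. Among all tested genes 19.9% were higher and 18.0% lower.

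Genes with a known part in Cyp3a transcription were then examined as a list of 25, of which 3 were higher, 9 lower and 13 did not pass the threshold (median log2 fold change −0.38). For this list and those below, the shares over all tested genes were 19.9% higher and 18.0% lower. No list was tested as a set. Hnf4a, the hepatocyte nuclear receptor, fell from 836 ± 50.1 to 480 ± 45.0 CPM (log2 fold change −0.80 ± 0.10, adjusted p = 0.000703, edgeR's quasi-likelihood test, as for all adjusted p-values below). Nr2f2, the orphan receptor COUP-TFII, rose from 19.8 ± 4.61 to 48.2 ± 1.91 CPM (1.28 ± 0.16, adjusted p = 0.000829). The corepressor Ncor1 was lower by −0.56 ± 0.08 (adjusted p = 0.00139), a call that was lost with library sizes alone (adjusted p = 0.101).

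The receptors themselves were picked after their values were seen. Nr1i2 (PXR) was at 105 ± 21.3 and 89.4 ± 2.11 CPM (log2 fold change −0.24 ± 0.15, adjusted p = 0.247), and its fold change became 0.13 with library sizes alone. Nr1i3 (CAR) was at 197 ± 60.3 and 133 ± 54.1 CPM (−0.57 ± 0.31, adjusted p = 0.189). Rxra, their common partner, passed the threshold at −0.39 ± 0.10 (adjusted p = 0.0166) but not with library sizes alone (adjusted p = 0.861), nor without control 1, control 3 or knockout 2 (adjusted p = 0.051 to 0.0658). Nr1h4, the bile acid receptor FXR, fell by 0.86 on the log2 scale (adjusted p = 0.00201).

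Of 27 genes known as targets of PXR or CAR outside the Cyp3a set, 3 were higher, 13 lower and 11 did not pass the threshold, with a median log2 fold change of −0.59. The lower ones were led by Aldh1a1, a retinaldehyde dehydrogenase, at 2470 ± 296 and 507 ± 44.8 CPM (−2.29 ± 0.12, adjusted p = 3.35e-05), and its relative Aldh1a7 (−1.52 ± 0.10, adjusted p = 5.87e-05). The glucuronosyltransferases Ugt2b34 (−1.07 ± 0.08, adjusted p = 8.16e-05) and Ugt1a9 (−1.30 ± 0.11, adjusted p = 0.000173) fell as well. The 3 that passed as higher were Abcb1a, a drug efflux pump (0.90 ± 0.15, adjusted p = 0.00312), Abcc3, an exporter of conjugates (0.52, adjusted p = 0.042), and Akr1b7, an aldo-keto reductase (1.43, adjusted p = 0.0172). The call of Abcc3 was lost on leaving out any single library other than control 3, with adjusted p-values of 0.0512 to 0.114. That of Akr1b7 was lost without control 2, control 3 or knockout 1 (adjusted p = 0.0506 to 0.0595). Cyp2b10, the classical target of CAR, was at 1.18 ± 0.691 and 3.21 ± 1.39 CPM and did not pass (adjusted p = 0.0735). Abcb1a, Abcc3, Akr1b7 and Cyp2b10 are named here with their values known.

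The electron donors of P450 enzymes and the enzymes of haem synthesis and breakdown, 19 genes, held 0 higher and 11 lower (median −0.50). Alas1, the rate-limiting enzyme of haem synthesis in liver, fell from 834 ± 170 to 230 ± 62.0 CPM (−1.86 ± 0.22, adjusted p = 0.000664), and Cpox, a later step, from 202 ± 14.8 to 80.2 ± 7.98 CPM (−1.33 ± 0.10, adjusted p = 0.000115). Cyb5b, the cytochrome b5 of the outer mitochondrial membrane, fell from 413 ± 16.5 to 197 ± 5.10 CPM (adjusted p = 8e-05). Pgrmc1, a haem-binding protein of the endoplasmic reticulum, fell from 1010 ± 53.3 to 584 ± 34.2 CPM (adjusted p = 0.000418). Por, the P450 reductase and named after its values were seen, was at 643 ± 164 and 490 ± 74.0 CPM and did not pass (adjusted p = 0.16). Cyb5a, another cytochrome b5 and also named with its values known, was at 566 ± 52.6 and 430 ± 84.2 CPM. It did not pass either (adjusted p = 0.0719).

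**Figure D4:**
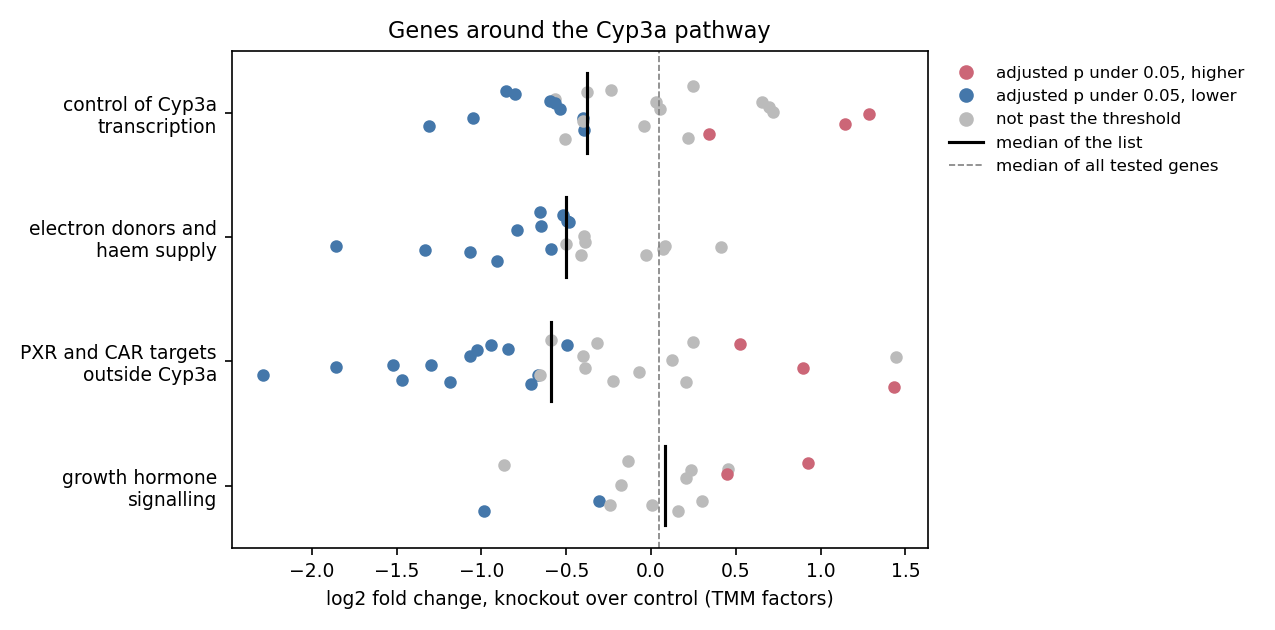
Log2 fold changes (knockout over control, TMM factors) of the genes in 4 lists around the Cyp3a pathway, coloured by whether they passed an adjusted p of 0.05. Black bars mark each list's median and the dashed line the median of all tested genes (0.05), and the medians of the first 3 lists are −0.38, −0.50 and −0.59.

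These list counts lean on the scaling. With library sizes alone the transcription list had 9 higher and 4 lower, the targets of PXR and CAR 5 and 9, and the electron and haem list 3 and 6. The fall of Hnf4a, Alas1, Cpox, Cyb5b, Pgrmc1, Aldh1a1, Aldh1a7, Ugt2b34 and Ugt1a9 passed the threshold under each alternative that was run. The hepatocyte marker list fell in the same libraries, with a median of −0.80. Its part in these differences was not tested.

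Since Cyp3a41a, Cyp3a41b and Cyp3a44 are female-enriched in mouse liver, sex-biased genes outside the set were counted too. Of 23 female-biased genes tested, 6 were higher, 6 lower and 11 did not pass (median 0.03). The higher ones included Cux2, a female-specific transcription factor (1.57 ± 0.453 to 27.3 ± 13.1 CPM, adjusted p = 0.000258), Prom1 (1.21 ± 0.360 to 26.0 ± 3.32 CPM, adjusted p = 3.62e-05), which is also a cholangiocyte marker, and the monooxygenase Fmo2 (adjusted p = 0.00113). Slc22a27, an organic anion transporter, was lower (−1.87 ± 0.24, adjusted p = 0.000967). Of 19 male-biased genes tested, 0 were higher, 16 lower and 3 did not pass (median −1.38). Mup20, a major urinary protein, fell from 1650 ± 169 to 54.3 ± 17.4 CPM (adjusted p = 2.81e-05), Mup3 and Mup21 had log2 fold changes of −5.21 and −3.65 (adjusted p = 6.91e-05 and 0.000107), and the transporter Slco1a1 fell from 91.5 ± 13.5 to 3.25 ± 1.54 CPM (adjusted p = 0.000127). With library sizes alone the female-biased list had 6 higher and 3 lower and the male-biased list 1 higher and 14 lower.

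Of 14 genes of growth hormone signalling, 2 were higher, 2 lower and 10 did not pass (median 0.08). Ghr, the receptor, fell from 259 ± 20.1 to 131 ± 13.9 CPM (−0.98 ± 0.11, adjusted p = 0.00044). Socs2, a feedback inhibitor of the receptor, rose from 20.7 ± 3.27 to 39.3 ± 5.13 CPM (adjusted p = 0.00267), and Ptpn1, a phosphatase acting on JAK2, rose by 0.45 ± 0.09 (adjusted p = 0.00642). Stat5a passed at −0.30 ± 0.10 (adjusted p = 0.0443) and lost its call on leaving out any 1 library (adjusted p = 0.0663 to 0.122). It was at 0.06 with library sizes alone (adjusted p = 0.671), where 6 genes of the list passed as higher and 1 as lower.

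As Cyp3a16 is known from immature liver, 16 genes linked to fetal liver were examined, of which 12 could be tested, and 4 of these were higher, 1 lower and 7 did not pass (median 0.74). Among those that did not pass were Zbtb20 and Zhx2, which are regulators and not markers of fetal liver. The higher ones were the imprinted genes H19 (0.635 ± 0.135 to 3.97 ± 1.38 CPM, adjusted p = 0.00108), Plagl1 (adjusted p = 0.00436) and Meg3 (adjusted p = 0.00687), and Dlk1, which had no count in the controls and a knockout mean of 1.0 ± 0.534 CPM (adjusted p = 0.00347). Dlk1 thus passed the filter on low counts only through the knockouts. Afp, the fetal counterpart of albumin and named after its values were seen, was at 10.9 ± 3.32 and 9.85 ± 2.94 CPM (adjusted p = 0.729). With library sizes alone 7 genes of the list passed as higher and 0 as lower.

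CYP3A enzymes are strongest in hepatocytes around the central vein. Of 15 pericentral genes, 0 were higher and 11 lower (median −1.28), including Glul, glutamine synthetase, at 2220 ± 478 and 284 ± 31.5 CPM (adjusted p = 4.69e-05), Cyp1a2 at 642 ± 147 and 121 ± 25.9 CPM (adjusted p = 0.000206), and Cyp2e1 at 6160 ± 161 and 2540 ± 326 CPM (adjusted p = 0.000172). Markers of other liver cells moved too: 10 of 11 stellate cell markers were higher (summed level 779 to 845 CPM in the controls, 2220 to 2560 in the knockouts), as were 10 of 11 macrophage markers (1160 to 1410, and 2850 to 3110). Of 9 lymphocyte markers 4 were higher and 1 lower (5.71 to 6.66, and 10.4 to 12.6), and of 8 endothelial markers 2 were higher and 2 lower (461 to 492, and 391 to 445). None of the hepatocyte, cholangiocyte, stellate, macrophage, endothelial or lymphocyte markers was at 0 in all libraries. The part of these cell types in the levels of the Cyp3a genes was not tested.

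The pattern of Cyp3a41a, at no count in the controls, highest in knockout 1 and lowest in knockout 3, was matched most closely by Ovol2, Treml1 and Chst9. Each reached a Pearson r of 0.9999 over the 6 libraries on log2(CPM + 0.0694), and each was at 0 in the controls, with knockout means of 1.34, 0.732 and 0.851 CPM. Such likeness was common. Of 18922 genes outside the set, 1878 had an r above 0.95, and the step between the groups is part of each of these correlations.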

How the data were processed

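The members and the gene lists were chosen with earlier results of these data known. The deposited table holds an estimated count and an FPKM value per gene and library, made by the authors. Per the submitters' processing notes the tools, given without roles, were HISAT2 2.0.4, StringTie 1.3.4d, cutadapt 1.9, edgeR, DESeq2 and UMI-tools. Per the labels' protocols, libraries were made from poly(A) RNA with a dUTP-marked second strand and molecular identifiers. The strand setting of the counting is not given in the sources used here. The same notes list mm9, but 94.2% of the 55141 identifiers found in GENCODE M21 had its GRCm38 position, all 9 members included. Columns are headed AlbCRE or wt plus a number per the file headers, and wt was taken as the only other genotype. The deposited estimated counts were whole numbers that piled up at multiples of 4. Deposited FPKM was 0.0001 where the count was 0, and such values are written as 0.

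In R 4.3.3, genes were kept by filterByExpr (minimum count 10, minimum total 15) and tested with edgeR 4.0.16 (TMM factors, glmQLFit and glmQLFTest, two-sided, genotype alone, Benjamini-Hochberg adjustment over 18931 genes, threshold 0.05). Alternatives were DESeq2 1.42.0, RLE factors, library sizes, no filter, counts divided by 4, limma 3.58.1 on log2(FPKM + 0.5), also with 1 and 0.1 and without a filter, a replicate block and leaving out each library. Levels per count of hepatocyte markers were added after seeing the data. From each list up to 4 genes with the smallest p are named, along with Prdx1, the members and the 3 genes most like Cyp3a41a. A gene that this rule would name is not reported here. Promoters come from RefSeq (GRCm38.p6). Exons, coding sequences and shared stretches come from GENCODE M21, from the longest protein-coding transcript of each member.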

Additional observations from a re-analysis of the deposited data

How the results depend on the processing

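Over all genes, 3767 higher and 3415 lower calls became 6459 and 1249 with library sizes, 5669 and 1321 with limma on FPKM + 0.5, 5682 and 1327 with FPKM + 1, and 5981 and 1148 with FPKM + 0.5 and no filter. With FPKM + 0.1 there were 5594 higher and 1311 lower calls. Members called higher ranged from 2 to 4 when 1 library was left out, and 0 members were called lower with library sizes or with any of the 4 limma settings. The cause was not tested. A member at few counts, such as Cyp3a16 and Cyp3a57, is limited by depth, as a read pair was worth about 4 counts.

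In FPKM the shares in the summed level (controls, then knockouts) were 74.2% and 65.0% for Cyp3a11, 18.5% and 22.7% for Cyp3a25, 3.20% and 6.23% for Cyp3a13, 2.55% and 3.06% for Cyp3a59, 1.52% and 1.93% for Cyp3a44, 0.0369% and 0.171% for Cyp3a57, and 0.0292% and 0.0254% for Cyp3a16. In the knockouts Cyp3a41a was at 0.518% and Cyp3a41b at 0.394%, and the pair summed to 0.461% in CPM (0.00120% in the controls). These compare with CPM shares of 87.1% and 81.0%, 8.88% and 11.6%, 2.18% and 4.51%, 1.18% and 1.5%, 0.688% and 0.924%, 0.0173% and 0.0839%, and 0.0118% and 0.0110%, in the same order. FPKM weighs a gene by its length. In the controls Cyp3a11 was at 3092 CPM and 489 FPKM, with a longest transcript of 2344 bases. Cyp3a25 was at 316 CPM and 122 FPKM, with 2000 bases. Cyp3a11 thus had more CPM per FPKM than Cyp3a25, by more than these lengths differ. The reason was not tested, and it bears on every FPKM share. The knockout over control ratio of the summed members was 0.70 with TMM factors, 0.90 with library sizes, 0.943 in FPKM, 1.15 per count of hepatocyte markers and 1.10 without albumin among them.

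With the replicate number as a block, 3269 genes were higher and 3207 lower, and 4 members were higher and 1 lower, as without it. Of the genes named outside the set, Stat5a and Cyp3a63-ps did not pass with the block (adjusted p = 0.0834 and 0.0888, edgeR). Same-numbered libraries deviated together only weakly (correlations of deviations 0.0157, 0.0309 and 0.0353), although every library correlated best with its own number, which is a hint from the data and not from the design. The labels do not say that the numbers pair mice.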
